A study of Mus musculus with 2 samples.

Results

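Solute carriers are membrane proteins that move amino acids, sugars, organic acids, metals, ions, nucleosides and vitamins across cell and organelle membranes. Their genes are named by family number, so that members of a numbered family resemble each other in sequence and often in substrate. Most work by coupling the substrate to an ion gradient or by exchanging it for another solute. Most members of the large SLC25 family sit in the inner mitochondrial membrane. In blood-forming cells carriers feed growth, load amines into granules, and handle iron and zinc.

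The rows examined here are those of the deposited gene table whose symbol starts with Slc and a digit, is not joined to another symbol, and has at least 1 FPKM in the higher condition. FPKM is a fragment count scaled by transcript length and sequencing depth, so levels can be set side by side between genes. Of 23309 rows, 369 carry such a symbol and 175 of them reached 1 FPKM, or 47.4%. Another 124 lay above 0 but below 1 FPKM, and 70 were listed at 0 in both conditions. Members were chosen by the larger of the same 2 values that are compared below, so their changes are given as a description and support no statement about solute carriers as a whole. Of the members 170 reached 1 FPKM in both conditions, 3 only after 4OHT and 2 only in vehicle.

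The cells were mouse bone marrow progenitors of genotype Cebpaf/f;CreER, lineage-depleted, transduced with the retroviruses MIGR1-HA-Hoxa9 and MIGR1-Flag-Meis1, and cultured with IL3. In them the Cre recombinase becomes active once it binds 4-hydroxytamoxifen (4OHT), which removes the loxP-flanked Cebpa gene of the myeloid transcription factor C/EBPα. Cells received 5 nM 4OHT or ethanol, its vehicle, for 72 h. Each condition is 1 sample in which 2 replicates were joined, so a gene has 1 value per condition and the spread between replicates is not known. Both groups carry Hoxa9, Meis1 and CreER, and no group with 4OHT but without loxP-flanked Cebpa was analysed here, so loss of Cebpa, 4OHT itself and Cre activity cannot be told apart. The age and number of the mice, the promoter of CreER and whether the cultures were clonal are not given in the sources used here.

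Cebpa had 42.8 FPKM after 4OHT against 109 FPKM in vehicle cells, so 39.2% of its RNA was left. The markers of the labelled cell type were present. All 8 listed stem and progenitor genes, among them Kit, Cd34 and Flt3, were above 1 FPKM. Each of the 8 rose after 4OHT in the authors' deposited table. The summed level of these genes was 1256 FPKM after 4OHT and 754 FPKM in vehicle cells. The marker lists were chosen with earlier results of these data known, so the counts and sums in this paragraph are a description only. For comparison, 2.7% of tested rows of at least 1 FPKM were called higher and 3.1% lower. Of 8 neutrophil markers 4 reached 1 FPKM and all 4 fell, and the list summed to 28.8 FPKM after 4OHT, against 80.8 FPKM in vehicle cells. Of 7 monocyte and macrophage markers that reached 1 FPKM 5 fell, and that list summed to 203 FPKM after 4OHT and 337 FPKM in vehicle cells. The eighth marker of the list, Mrc1, rose, to 0.499 FPKM after 4OHT against 0.185 FPKM in vehicle cells. The part of these cell types in the carrier changes was not tested. B cell markers summed to 2.20 FPKM after 4OHT and 1.33 FPKM in vehicle cells, where Ebf1 alone reached 1 FPKM and rose, to 1.54 FPKM after 4OHT against 0.754 FPKM. T cell markers summed to 0.0573 FPKM after 4OHT and 0.0856 FPKM in vehicle cells. In a bulk culture, fewer cells of a type and less RNA per cell cannot be told apart, which holds for each change below.

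Calls are those of the authors' deposited table, at status OK and a q-value under 0.05. Its p-values are whole multiples of 5e-05, and which test gave them is not known. The smallest q, 0.00165, is shared by 363 rows, 8 of them members, so it ranks no gene above another. By that rule 7 of 175 members were higher after 4OHT and 7 were lower. Of all tested rows 2.8% were higher, 3.11% lower and 5.91% either. Among tested rows of at least 1 FPKM the shares were 2.7% higher, 3.1% lower and 5.8% either. The members' own share was 4% in each direction, or 8% in all, and no weight is put on that difference. All 175 members had been tested. At the authors' unadjusted p under 0.05, 26 of 175 members passed, against 1287 of all 10989 rows of at least 1 FPKM.

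The 14 called carriers were spread over 10 of 42 families, and 4 of them lie on chromosome 11, which holds 21 of the members. The amine, amino acid and organic cation carriers Slc18a2, Slc7a8 and Slc22a3, the sugar carrier Slc45a3, the endosomal exchanger Slc9a9, the sulfate carrier Slc26a11 and Slc22a23 rose. The lactate exporter Slc16a3, the glucose carrier Slc2a1, the cystine carrier Slc7a11, the dicarboxylate carrier Slc13a2, the ergothioneine carrier Slc22a4 and the ion exchangers Slc24a6 and Slc26a6 fell. The 7 risers summed to 225 FPKM after 4OHT and 125 FPKM in vehicle cells. The 7 that fell summed to 119.6 FPKM after 4OHT and 206 FPKM in vehicle cells. The genes were grouped by the direction of these same values, so the direction of each sum was fixed in advance.

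**Figure D1:**
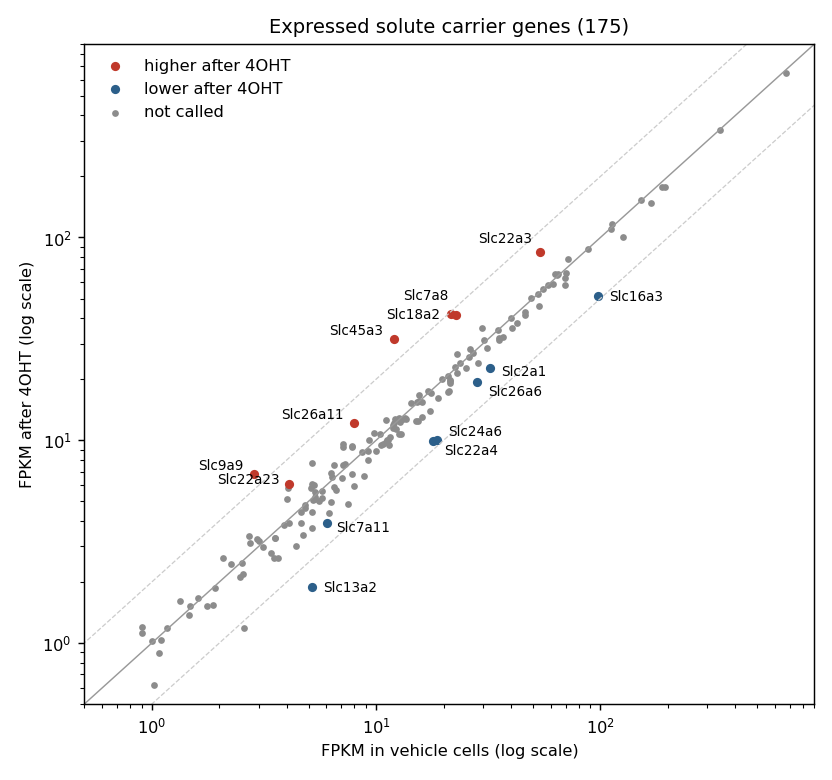
FPKM after 4OHT (vertical, log scale) against FPKM in vehicle cells (horizontal, log scale) for the 175 expressed solute carrier genes, 1 point per gene. The solid line marks equal levels and the dashed lines a 2-fold difference. Most points lie along the solid line, Slc45a3 and Slc9a9 lie above the upper dashed line, and Slc13a2 and an uncalled gene, Slc7a7, lie below the lower one.

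Most carriers differed little. In all, 127 of 175 members, or 72.6%, differed by less than 1.2-fold between conditions, against 77.5% of all rows of at least 1 FPKM. A difference of 2-fold or more was seen in 4 members, and 3 of these were called. The share of all rows at 2-fold was not computed. The median log2((4OHT FPKM + 1)/(vehicle FPKM + 1)) was -0.05 over members and 0.00 over all rows of at least 1 FPKM. With a pseudocount of 1 that ratio understates the change of low genes. The ratio was above 0 in 67 members and below 0 in 108, and 5505 against 5484 over all rows of at least 1 FPKM.

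Carrier RNA was concentrated in few genes. The members summed to 4747 FPKM after 4OHT and 4913 FPKM in vehicle cells, and 15 genes after 4OHT and 14 in vehicle cells held 50% of it. How many genes held 50% of the sum over all rows was not computed. Carriers of the SLC25 family, all classed here as mitochondrial, made up 39.1% of the sum after 4OHT and 38.7% in vehicle cells. Amino acid and peptide carriers made up 17.8% after 4OHT and 17.7% in vehicle cells, and metal and heme carriers 10.1% and 10.4%. Organic acid carriers, by contrast, had 2.53% after 4OHT and 3.60% in vehicle cells.

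**Figure D2:**
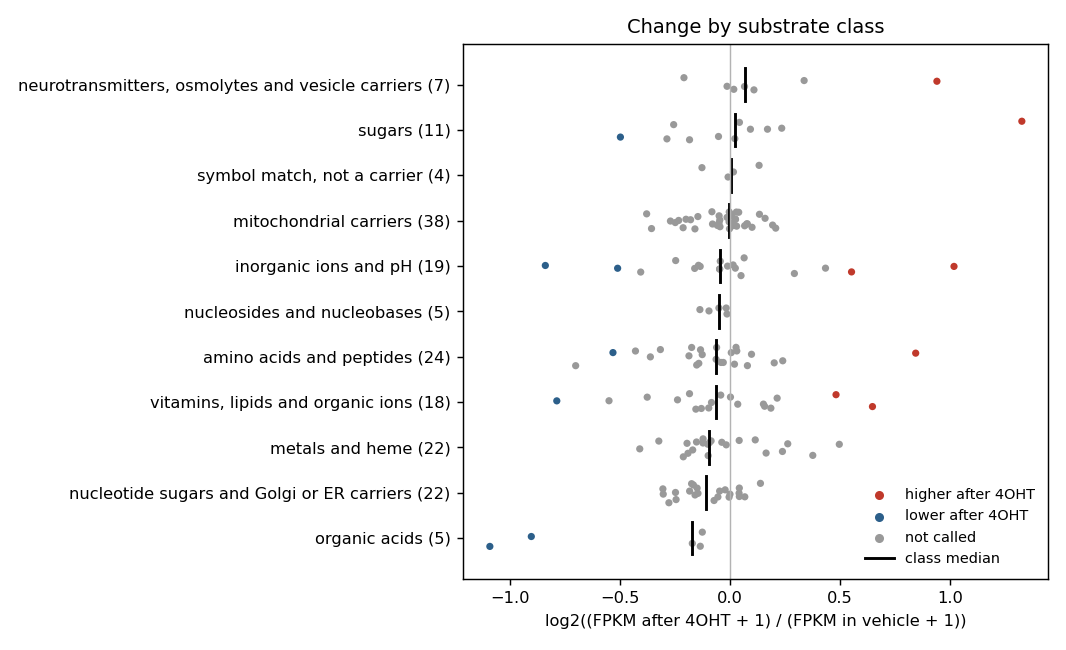
Change of each expressed solute carrier, as log2 of the 4OHT over the vehicle level with 1 FPKM added to each, by substrate class, with the number of members in brackets. Points are genes, coloured by the call in the authors' deposited table, and black bars are class medians, which run from -0.17 (organic acids) to 0.07 (neurotransmitters, osmolytes and vesicle carriers). Called genes lie in 6 classes, and the mitochondrial, metal, nucleotide sugar and nucleoside classes hold none. In the amino acid class the uncalled Slc7a7, at -0.70, lies lower than the called Slc7a11, at -0.53.

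Carriers of organic acids gave 2 falls among 5 members and no rise. Among tested rows of at least 1 FPKM 3.1% were lower and 5.8% were called in either direction. No weight is put on the number of calls in this class or in the other classes below. Slc16a3, also called MCT4, exports lactate with a proton from glycolytic cells. It had 51.7 FPKM after 4OHT and 97.6 FPKM in vehicle cells, a 1.89-fold fall with q = 0.00165 in the authors' deposited table (mm9 chromosome 11, 120809798 to 120820314). Slc13a2, a sodium-coupled carrier of succinate and citrate, had 1.90 FPKM after 4OHT and 5.17 FPKM in vehicle cells. It fell 2.72-fold at q = 0.00165 in the authors' deposited table, and it lies on mm9 chromosome 11 at 78207987 to 78235687. Its neighbour Slc46a1, the proton-coupled folate carrier, had 4.83 FPKM after 4OHT against 7.53 FPKM and just missed the threshold, at q = 0.0526 in the authors' deposited table.

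The close relative Slc16a1, or MCT1, which moves lactate in either direction, had 37.7 FPKM after 4OHT and 42.6 FPKM in vehicle cells and was not called. Slc16a3 thus stood at 1.37 times the level of Slc16a1 after 4OHT, against 2.29 times in vehicle cells. Slc16a6 had 22.7 FPKM after 4OHT and 25.05 FPKM in vehicle cells, and Slc16a13 had 5.87 FPKM against 6.50 FPKM. Both lactate carriers need a single-span partner protein to reach the cell surface. Basigin, encoded by Bsg, is the usual partner, and embigin, encoded by Emb, is its relative. Emb fell to 118 FPKM after 4OHT, against 224 FPKM in vehicle cells, with q = 0.00165 in the authors' deposited table. Bsg had 364 FPKM after 4OHT and 457 FPKM in vehicle cells, with q = 0.349 there.

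Sugar carriers moved in opposite directions. Slc2a1, or GLUT1, the basal glucose carrier of many cell types, had 22.6 FPKM after 4OHT and 32.3 FPKM in vehicle cells. It fell 1.43-fold at q = 0.0332 in the authors' deposited table, the smallest called change among the members. Slc2a3, the high-affinity glucose carrier, had 28.1 FPKM after 4OHT and 26.3 FPKM in vehicle cells, and Slc2a6, a lysosomal relative, had 31.3 FPKM against 30.4 FPKM. Slc2a1 therefore stood at 0.803 times the level of Slc2a3 after 4OHT and at 1.23 times in vehicle cells. The 3 genes together gave 82.1 FPKM after 4OHT and 89.0 FPKM in vehicle cells.

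Slc45a3, also called prostein and described as a proton-coupled sucrose carrier, gave the largest rise among the members by the log2 ratio used here. It had 31.7 FPKM after 4OHT and 12.1 FPKM in vehicle cells, a 2.63-fold rise with q = 0.00165 in the authors' deposited table (mm9 chromosome 1, 133859492 to 133879549). Its relative Slc45a4 had 12.6 FPKM after 4OHT and 11.1 FPKM in vehicle cells. Slc50a1, at 32.2 FPKM after 4OHT and 36.7 FPKM in vehicle cells, was the sugar carrier with the highest mean. Slc37a4, which brings glucose-6-phosphate into the endoplasmic reticulum, had 17.3 FPKM after 4OHT against 20.9 FPKM, and Slc2a8 had 4.97 FPKM against 6.28 FPKM. None of these 4 passed the test.

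Hif1a, the transcription factor gene known to act on Slc2a1 and Slc16a3 in low oxygen, was on the list of carrier regulators. It fell to 45.2 FPKM after 4OHT, against 76.5 FPKM in vehicle cells, with q = 0.00165 in the authors' deposited table. Txnip, an arrestin that lowers surface GLUT1, had 84.0 FPKM after 4OHT and 84.7 FPKM in vehicle cells. Of 16 partner and regulator genes that reached 1 FPKM, Cebpg rose, Emb and Hif1a fell, and 13 were not called. The median log2 ratio of that list was -0.11. Among tested rows of at least 1 FPKM 5.8% were called, and no weight is put on the list's count. Whether any of these partner and regulator RNAs had a part in the carrier changes was not tested.

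**Figure D3:**
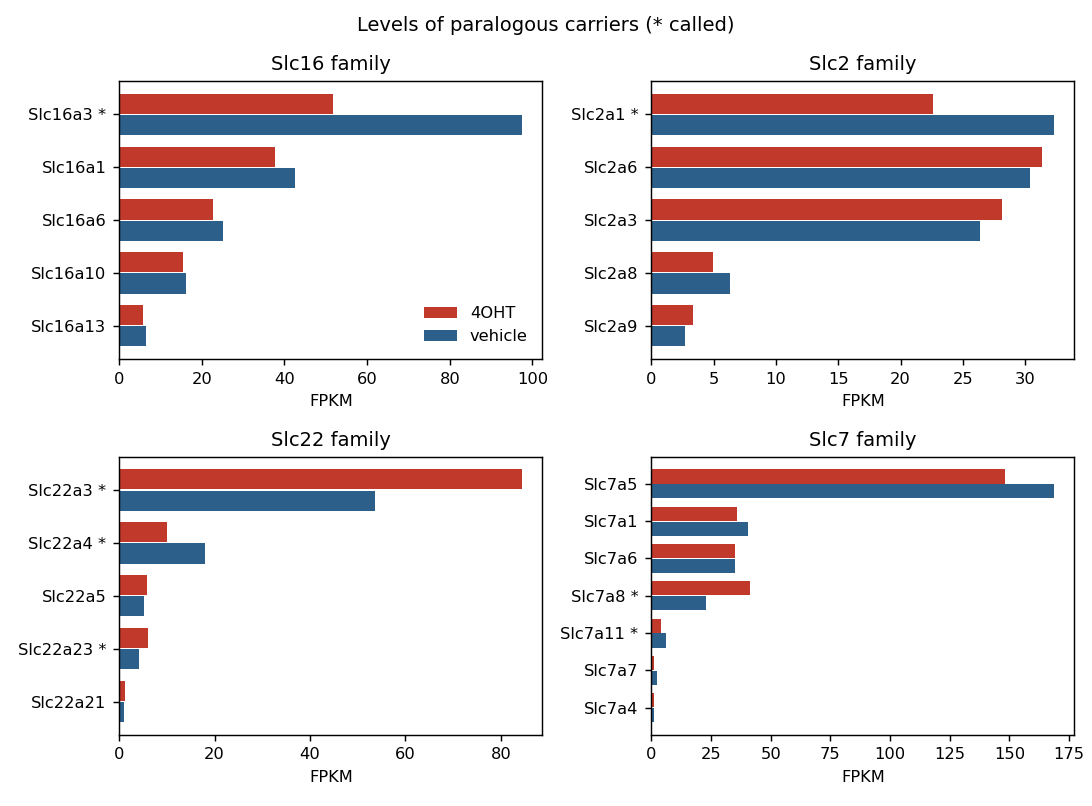
FPKM after 4OHT (red) and in vehicle cells (blue) for all expressed carriers of the Slc16, Slc2, Slc22 and Slc7 families, on linear axes that start at 0, with 1 value per condition and an asterisk for called genes. Within each family called genes stand beside relatives that were not called. Slc16a3, at 51.7 FPKM after 4OHT and 97.6 FPKM in vehicle cells, stands above Slc16a1 at 37.7 and 42.6 FPKM. The uncalled Slc7a7 differed 2.15-fold.

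Of 24 amino acid and peptide carriers 1 rose, 1 fell and 22 were not called. Among tested rows of at least 1 FPKM 5.8% were called. The class median log2 ratio was -0.06. The highest means were those of Slc1a5, the neutral amino acid carrier that brings in glutamine, and the leucine carrier Slc7a5. Slc1a5 had 177 FPKM after 4OHT and 194 FPKM in vehicle cells, and Slc7a5 had 148 FPKM against 169 FPKM. Slc3a2, the heavy chain that Slc7a5, Slc7a8, Slc7a6 and Slc7a11 need at the membrane, had 153 FPKM after 4OHT and 151 FPKM in vehicle cells. The shared subunit was thus at nearly equal levels, while its light chains Slc7a8 and Slc7a11 were called in opposite directions.

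Slc7a8, the light chain of the neutral amino acid exchanger LAT2, had 41.6 FPKM after 4OHT and 22.7 FPKM in vehicle cells. It rose 1.83-fold with q = 0.00165 in the authors' deposited table (mm9 chromosome 14, 55341052 to 55400723). It stood at 0.280 times the level of Slc7a5 after 4OHT, against 0.135 times in vehicle cells. Slc7a7, the light chain of the cationic exchanger y+LAT1, had 1.19 FPKM after 4OHT and 2.56 FPKM in vehicle cells. That was the largest change, 2.15-fold, of any uncalled member, with q = 0.901 in the authors' deposited table. Slc36a4, a relative of the lysosomal amino acid carrier Slc36a1, had 3.0 FPKM after 4OHT and 4.39 FPKM in vehicle cells.

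Slc7a11, the light chain of xCT, exchanges cystine for glutamate and so feeds glutathione synthesis. It had 3.89 FPKM after 4OHT and 6.07 FPKM in vehicle cells, a 1.56-fold fall with q = 0.0111 in the authors' deposited table (mm9 chromosome 3, 50168858 to 50247535). The gene is a known target of Atf4, which pairs with C/EBP proteins on elements of the form TGATGCAA. Atf4 had 285 FPKM after 4OHT and 315 FPKM in vehicle cells, and the Atf4 targets Asns and Chac1 had 120 and 9.40 FPKM after 4OHT, against 132 and 8.02 FPKM. None of the 3 was called. Cebpg, a C/EBP family partner of Atf4, rose to 41.8 FPKM after 4OHT, against 28.3 FPKM in vehicle cells, with q = 0.0167 in the authors' deposited table. Nfe2l2, which also acts on Slc7a11, had 31.8 FPKM after 4OHT and 28.2 FPKM in vehicle cells. Whether any of these regulators had a part in the change of Slc7a11 was not tested.

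The promoter of Slc7a11 is shown because, of the 12 called carriers with a promoter window, it alone held either motif searched. The window runs from 250 bases before to 50 bases after the transcription start in RefSeq on GRCm38.p6 (minus strand, chr3:50443564-50443863), a later build than that of the expression table. It is printed in the direction of transcription, with matches to TGATGCAA or to the C/EBP motif TTGCNNAA, on either strand, in capitals.
Slc7a11: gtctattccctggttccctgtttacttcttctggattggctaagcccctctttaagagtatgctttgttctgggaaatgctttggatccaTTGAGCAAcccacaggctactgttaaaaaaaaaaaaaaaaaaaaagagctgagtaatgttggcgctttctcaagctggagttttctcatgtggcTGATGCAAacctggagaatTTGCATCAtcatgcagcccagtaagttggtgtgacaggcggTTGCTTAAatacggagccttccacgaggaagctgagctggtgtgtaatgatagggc
It held 2 matches to TGATGCAA in opposite orientations, which begin 66 and 47 bases before the start, and 2 to TTGCNNAA, which begin 160 and 6 bases before it.

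Promoter windows were at hand for 133 of 175 members and for 12 of the 14 called. TGATGCAA occurred in 4 of the 133, or 3.01%, against 1.03% of 27025 genes with a window and 0.811% of those with at least 1 FPKM here. TTGCNNAA occurred in 14 of the 133, or 10.5%, against 12.2% of all genes and 9.96% of those with at least 1 FPKM. A gene was counted if any of its windows held the motif. With so few matches, no weight is put on these differences. No run of 8 bases can match both motifs, though matches may lie across each other. A match is a run of letters in a reference sequence and says nothing of binding in these cells. The 30 bases around each TGATGCAA match are printed in the direction of transcription, with the match in capitals.
Slc7a11, forward match: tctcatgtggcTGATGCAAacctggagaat
Slc7a11, reverse match: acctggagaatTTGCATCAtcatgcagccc
Slc7a7, forward match: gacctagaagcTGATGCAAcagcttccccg
Slc1a4, reverse match: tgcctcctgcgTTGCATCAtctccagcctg
Slc50a1, forward match: agtggtctcgaTGATGCAAggggtgcgcag
The Slc7a7 match is printed once, though it falls in the windows of 2 starts of that gene. Slc7a7, Slc7a11 and Slc1a4 carry amino acids. Slc1a4, a carrier of alanine, serine and cysteine, had 10.1 FPKM after 4OHT and 9.33 FPKM in vehicle cells. Of the 4 genes only Slc7a11 was called. Slc7a7 had 1.19 FPKM after 4OHT and 2.56 FPKM in vehicle cells, in the range below 5 FPKM where no member was called. Whether the motif had a part in any change was not tested.

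The windows of the largest rise and the largest fall, both without a match to either motif, are given for comparison. RefSeq lists 2 starts for Slc45a3, and the window of its upstream start is shown (plus strand, chr1:131962665-131962964). That of Slc13a2 is on the minus strand at chr11:78422185-78422484.
Slc45a3: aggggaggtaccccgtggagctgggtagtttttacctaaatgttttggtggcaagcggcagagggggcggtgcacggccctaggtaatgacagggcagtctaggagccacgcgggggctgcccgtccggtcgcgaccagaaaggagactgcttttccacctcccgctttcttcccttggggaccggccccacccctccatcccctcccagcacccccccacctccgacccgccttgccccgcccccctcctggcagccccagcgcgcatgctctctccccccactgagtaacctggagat
Slc13a2: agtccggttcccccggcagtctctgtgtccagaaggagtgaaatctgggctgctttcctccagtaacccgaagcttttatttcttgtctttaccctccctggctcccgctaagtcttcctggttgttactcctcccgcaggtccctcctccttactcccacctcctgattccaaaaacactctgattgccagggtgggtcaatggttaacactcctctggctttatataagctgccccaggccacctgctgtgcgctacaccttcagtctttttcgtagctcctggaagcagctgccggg

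Slc18a2 and Slc22a3, carriers of amines and organic cations that mast cells and basophils use, were among the genes that rose. Slc18a2, the vesicular monoamine carrier VMAT2 that loads serotonin and histamine into granules, had 42.1 FPKM after 4OHT and 21.5 FPKM in vehicle cells (q = 0.00165 in the authors' deposited table). It stood at 12.98 times the level of its relative Slc18a1 after 4OHT, against 7.31 times in vehicle cells. Slc22a3, the organic cation carrier OCT3 that moves histamine, had 84.5 FPKM after 4OHT and 53.6 FPKM in vehicle cells. It rose 1.58-fold at q = 0.00569 in the authors' deposited table, and had the highest mean of the carriers of vitamins, lipids and organic ions. Slc24a3, a potassium-dependent sodium/calcium exchanger, had 5.84 FPKM after 4OHT and 4.06 FPKM in vehicle cells and was not called. Slc6a4, the serotonin carrier of the plasma membrane, had 0.251 FPKM after 4OHT and 0.133 FPKM in vehicle cells, below the level that made a gene a member.

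These 3 genes, Slc7a8 and Slc6a4 had been listed as carriers of mast cells and basophils. In that list 4 of 5 carriers were above 1 FPKM, and Slc18a2, Slc22a3 and Slc7a8 rose. Its summed level was 174 FPKM after 4OHT and 102 FPKM in vehicle cells. The rise of Slc18a2 was known when the list was made, so the count is a description only. Among tested rows of at least 1 FPKM 2.7% were higher. Of 8 mast cell and basophil markers that are no carriers, 4 reached 1 FPKM and 1 of these, Cpa3, rose, to 975 FPKM against 562 FPKM in vehicle cells. The whole marker list summed to 1082 FPKM after 4OHT and 661 FPKM in vehicle cells, and Mcpt1, Mcpt2 and Mcpt4 were listed at 0. Mcpt8, the basophil protease, had 61.0 FPKM after 4OHT and 61.2 FPKM in vehicle cells. Hdc, which makes histamine, had 37.4 FPKM against 30.7 FPKM and was not called. The part of such cells in the carrier changes was not tested.

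Other members of the Slc22 family went separate ways. Slc22a4, or OCTN1, which carries ergothioneine, had 9.97 FPKM after 4OHT and 17.9 FPKM in vehicle cells, a 1.797-fold fall at q = 0.00165 in the authors' deposited table. Its relatives Slc22a5, the carnitine carrier OCTN2, and Slc22a21 lie beside it on mm9 chromosome 11, and all 3 genes fit between 53678044 and 53841592. Slc22a5 had 5.81 FPKM after 4OHT and 5.13 FPKM in vehicle cells, and Slc22a21 had 1.12 FPKM against 0.901 FPKM, so neither neighbour was called. Slc22a23, whose substrate is not established, rose to 6.12 FPKM after 4OHT, against 4.10 FPKM in vehicle cells, at q = 0.0256 in the authors' deposited table.

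The other carriers of vitamins and lipids held no called gene. The choline carrier-like Slc44a2 had 58.6 FPKM in each condition. Slc19a1, the reduced folate carrier, had 41.5 FPKM after 4OHT and 46.4 FPKM in vehicle cells. Slc27a4, which takes up long-chain fatty acids, had 3.41 FPKM after 4OHT against 4.72 FPKM. Of 18 members of this class 2 rose, 1 fell and 15 were not called, and the median log2 ratio was -0.06. Among tested rows of at least 1 FPKM 5.8% were called.

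Carriers of inorganic ions had 2 rises and 2 falls among 19 members. Called rows made up 5.8% of tested rows of at least 1 FPKM. Slc9a9, a sodium/proton exchanger of endosomes, had 6.82 FPKM after 4OHT and 2.86 FPKM in vehicle cells, a 2.38-fold rise (mm9 chromosome 9, 94570311 to 95130871). Slc24a6, the sodium/calcium exchanger of mitochondria, had 10.04 FPKM after 4OHT and 18.7 FPKM in vehicle cells, a 1.87-fold fall. Both had q = 0.00165 in the authors' deposited table. Slc26a11, a sulfate carrier, rose to 12.2 FPKM after 4OHT, against 7.98 FPKM in vehicle cells, and Slc26a6, an exchanger of chloride, oxalate and bicarbonate, fell to 19.5 FPKM, against 28.2 FPKM. Their q was 0.0251 and 0.0210 in the authors' deposited table. Slc26a11 therefore stood at 0.624 times the level of Slc26a6 after 4OHT and at 0.283 times in vehicle cells.

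Other carriers of that class were not called. Slc20a1, a phosphate carrier that also serves as a retrovirus receptor, had 32.0 FPKM after 4OHT and 35.5 FPKM in vehicle cells. Slc12a4, a potassium/chloride cotransporter, had 3.68 FPKM after 4OHT and 5.19 FPKM in vehicle cells. Slc9a8, a relative of Slc9a9, had 12.8 FPKM after 4OHT and 13.2 FPKM in vehicle cells.

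**Figure D4:**
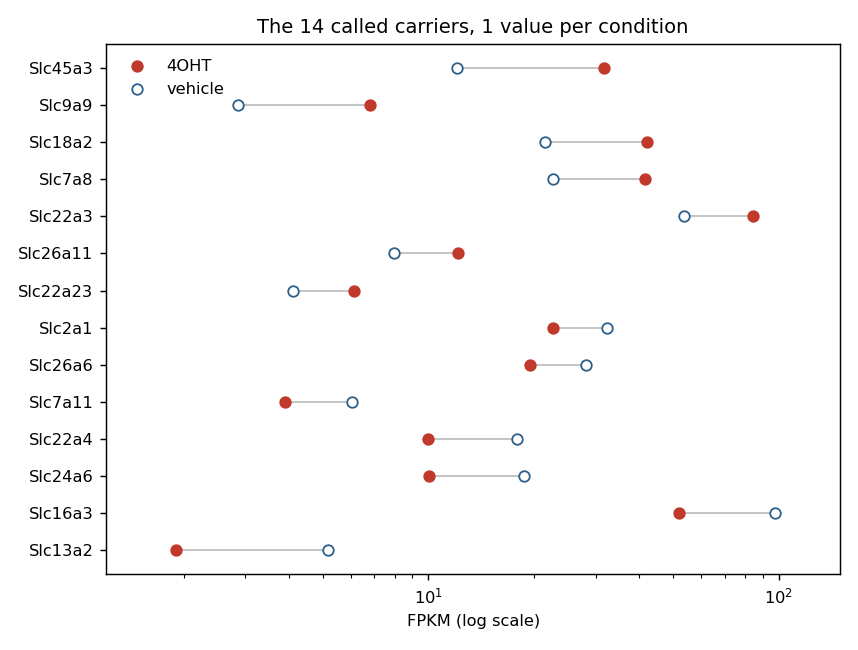
FPKM on a log scale after 4OHT (filled) and in vehicle cells (open) for the 14 called carriers, 1 value per condition, ordered from the largest rise at the top to the largest fall at the bottom by the log2 ratio with 1 FPKM added. Slc22a3 at 84.5 FPKM after 4OHT is the most abundant riser, and Slc16a3 at 97.6 FPKM in vehicle cells is the most abundant gene that fell.

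Carriers of the SLC25 family, the largest class, were classed as mitochondrial by family number, whatever the membrane of a member. They held no called gene among 38 in the authors' deposited table, where 5.8% of tested rows of at least 1 FPKM were called. No weight is put on the lack of calls in this class or in the smaller ones below. Slc24a6, which fell, acts in mitochondria too but belongs to the ion exchangers by family. At the authors' unadjusted p under 0.05, 1 of the 38 passed, against 1287 of all 10989 rows of at least 1 FPKM. It was the ornithine carrier Slc25a15, with 5.92 FPKM after 4OHT and 7.997 FPKM in vehicle cells. The ADP/ATP carrier Slc25a5 was the most abundant solute carrier, at 651 FPKM after 4OHT and 672 FPKM in vehicle cells. The phosphate carrier Slc25a3 had 339 FPKM after 4OHT and 340 FPKM in vehicle cells, and the citrate carrier Slc25a1 had 87.7 FPKM against 87.8 FPKM. Log2 ratios in the class ran from -0.38 to 0.21, and 32 of 38 carriers differed by less than 1.2-fold. Slc25a29, a carrier of basic amino acids, had 2.63 FPKM after 4OHT against 3.65 FPKM.

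The mitochondrial iron and heme carriers were in that group. Slc25a37, mitoferrin-1, which brings iron into mitochondria of red cell precursors, had 24.1 FPKM after 4OHT and 28.5 FPKM in vehicle cells. Slc25a28, mitoferrin-2, its relative in other cells, had 22.9 FPKM after 4OHT and 22.5 FPKM in vehicle cells. Slc25a38, a glycine carrier for heme synthesis, had 9.45 FPKM after 4OHT and 11.4 FPKM in vehicle cells. Slc4a1, the band 3 anion exchanger of mature red cells, was listed at 0 in both conditions.

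Carriers of metals and heme had no called gene among 22 in the authors' deposited table. Of all tested rows of at least 1 FPKM 5.8% were called there. At the authors' unadjusted p under 0.05, 4 of the 22 passed, against 1287 of all 10989 rows of at least 1 FPKM. The zinc carriers Slc39a7, of the endoplasmic reticulum, and Slc39a4 and Slc39a8, of the plasma membrane, were among these 4. Slc39a7 had 100.2 FPKM after 4OHT and 126 FPKM in vehicle cells, Slc39a4 had 7.75 FPKM against 5.20 FPKM, and Slc39a8 had 4.37 FPKM against 6.14 FPKM. The heme carrier Slc48a1 had 116 FPKM after 4OHT and 113 FPKM in vehicle cells. Slc11a2, the iron carrier DMT1, had 10.03 FPKM after 4OHT and 11.3 FPKM in vehicle cells. The macrophage genes Slc11a1, a metal carrier of phagosomes, and Slc40a1, the iron exporter ferroportin, lay below 1 FPKM in both conditions.

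Iron handling genes outside the carrier families were listed as well. Of 11 iron handling genes that reached 1 FPKM, 1 rose, 1 fell and 9 were not called. Among tested rows of at least 1 FPKM 5.8% were called, and no weight is put on the difference. Tfr2, a transferrin receptor, rose to 28.7 FPKM after 4OHT, against 15.3 FPKM in vehicle cells. Hmox1, the heme oxygenase that frees iron from heme, fell to 10.9 FPKM after 4OHT, against 19.7 FPKM in vehicle cells. Both had q = 0.00165 in the authors' deposited table. Ftl1 and Fth1, the ferritin chains, and Ncoa4, their cargo receptor, were not called, with 2009, 1129 and 139 FPKM after 4OHT, against 2254, 1006 and 104 FPKM. The other transferrin receptor gene, Tfrc, had 92.6 FPKM after 4OHT and 97.4 FPKM in vehicle cells and was not called.

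Nucleotide sugar and other Golgi or endoplasmic reticulum carriers gave no called gene among 22 in the authors' deposited table, nor any at the authors' unadjusted p under 0.05. Of all tested rows of at least 1 FPKM 5.8% were called. Of all 10989 rows of at least 1 FPKM, 1287 had an unadjusted p under 0.05. In 17 of the 22 the level was lower after 4OHT, and the class median was -0.11. Slc35b1, of the endoplasmic reticulum, had 58.2 FPKM after 4OHT and 69.2 FPKM in vehicle cells, and Slc35a4 had 66.8 FPKM against 70.3 FPKM. Slc33a1, which brings acetyl-CoA into the endoplasmic reticulum, had 13.9 FPKM after 4OHT and 17.4 FPKM in vehicle cells, and Slc35d2 had 2.63 FPKM against 3.49 FPKM.

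None of the 5 nucleoside and nucleobase carriers was called in the authors' deposited table or had an unadjusted p under 0.05 there. Slc29a1, the equilibrative nucleoside carrier through which cytarabine enters cells, had 63.3 FPKM after 4OHT and 69.7 FPKM in vehicle cells. Slc43a3, a nucleobase carrier, had 42.9 FPKM after 4OHT and 45.9 FPKM in vehicle cells. Beside Slc18a2, the class of neurotransmitter, osmolyte and vesicle carriers held 6 uncalled genes. The taurine carrier Slc6a6 had 24.0 FPKM after 4OHT and 23.7 FPKM in vehicle cells, the glycine carrier Slc6a9 had 9.22 FPKM against 7.10 FPKM, and the vesicular nucleotide carrier Slc17a9 had 16.2 FPKM against 18.9 FPKM.

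Another 4 members match the symbol rule without being carriers, and none was called. They are the scaffold protein gene Slc9a3r1 (78.4 FPKM after 4OHT, 71.4 FPKM in vehicle cells), Slc7a6os (28.5 and 31.2 FPKM), Slc4a1ap (15.4 and 15.2 FPKM) and Slc2a4rg-ps (2.49 and 2.51 FPKM). Without them 171 carriers remain, with the same 7 rises and 7 falls. Of these 4 rows Slc7a6os lies 1734 bases from Slc7a6 on mm9 chromosome 8.

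How small a change was called among the members differed with level. Of 38 members below 5 FPKM in the higher condition, 3 differed by at least 1.4-fold and none was called. Between 5 and 20 FPKM 7 of 12 such members were called, and between 20 and 100 FPKM 7 of 7. None of the 9 members of 100 FPKM or more differed by 1.4-fold. A low level did not bar a call in other rows. Cxcr2, for one, was called with 2.22 FPKM after 4OHT and 3.68 FPKM in vehicle cells. The values come without counts of reads, and their depth is unknown. Just inside the minimum of 1 FPKM lay Slc3a1 (0.622 FPKM after 4OHT, 1.02 FPKM in vehicle cells), Slc5a2 (1.03 and 0.999 FPKM) and Slc6a15 (0.890 and 1.07 FPKM). Just outside lay Slc37a3 (0.992 and 0.902 FPKM), Slc7a3 (0.895 and 0.992 FPKM) and Slc16a12 (0.0565 and 0.992 FPKM).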

How the data were processed

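RNA sequencing of 2 mouse samples, 1 per condition, was analysed from the table that the authors deposited. Per the labels' protocols, total RNA was column-purified, treated with DNase and prepared with Illumina's TruSeq RNA kit. Tools named in the submitters' processing notes, with no role stated, are Cuffdiff 2.0.2, Bowtie2 2.0.0.7 and CASAVA 1.8.2, and the build is mm9. The annotation, the scaling between conditions and whether strand was kept are not given in the sources used here. Antisense or overlapping reads can therefore not be separated from those of a gene. Per the file headers, the authors' values are 1 FPKM per gene and condition, with a p-value and q-value, a test score and a linear fold ratio, of which the score and the ratio were not used. The authors tested 11953 of 23309 rows.

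No test was run here. Ratios use a pseudocount of 1. Python 3.11.15 and pandas 2.3.3 were used, and the counting was tested on simulated data. Classes follow family numbers with exceptions by gene; Slc4a1ap was moved to the rows that are no carriers after its values were seen. Genes named in the text were the called members, and in each class the 2 of highest mean and the 2 uncalled with the largest ratio, plus the rows around 1 FPKM and the called or most abundant genes of the other lists. Further uncalled relatives of these genes, such as Slc16a13, Slc25a1, Slc25a28 and Slc9a8, were added after their values were seen. A few members that this rule names are not reported here. Members and lists were chosen with earlier results of these data known. Promoters came from RefSeq on GRCm38.p6.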

Additional observations from a re-analysis of the deposited data

How the results depend on the processing

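At a q under 0.01 in the authors' deposited table, 5 members were higher and 4 lower, instead of 7 in each direction. With a 2-fold difference in place of q, 2 members were higher and 2 lower. The minimum level, rows that are no carriers and joined symbols moved neither count by more than 1.5 times, and no joined row held a carrier symbol. The median log2 ratio of the members moved by less than 0.1 under each pseudocount, scaling and minimum tried, as did all 33 class medians recomputed. With a pseudocount of 0.1 the log2 ratio of Slc13a2 was -1.40 and that of Slc9a9 1.22, and no called carrier changed direction. Leaving out a replicate was not run, since each condition has 1 value. No paired analysis was possible because the replicates are joined in each sample. Depth is unknown, and none of the 38 members below 5 FPKM was called, though some other rows below 5 FPKM were.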

Other observations

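Below the 1 FPKM minimum, 2 further carriers fell in the authors' deposited table, chosen here after their values were seen. Slc16a12, a carrier related to the lactate carriers, had 0.0565 FPKM after 4OHT and 0.992 FPKM in vehicle cells, with q = 0.00165 in the authors' deposited table. Slc26a9, a chloride carrier, had 0.162 FPKM after 4OHT and 0.498 FPKM in vehicle cells, with q = 0.0167 there.

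Transporter genes that carry other symbols were listed as well. Of 31 listed, 22 reached 1 FPKM, 1 rose and 21 were not called. Called rows made up 5.8% of all tested rows of at least 1 FPKM. In the authors' deposited table (q = 0.00165) Spns2, which exports sphingosine-1-phosphate, rose to 85.8 FPKM after 4OHT, against 42.1 FPKM in vehicle cells. Its relative Spns3 had 45.3 FPKM after 4OHT and 35.4 FPKM in vehicle cells, and Spns1 had 15.4 FPKM against 15.1 FPKM. The mitochondrial genes Ucp2 (124 FPKM after 4OHT, 123 FPKM in vehicle cells), Sfxn1 (93.0 and 89.1 FPKM) and Mpc1, of the pyruvate carrier (78.7 and 94.1 FPKM), were not called. The organic anion carriers Slco3a1 (21.8 and 16.1 FPKM) and Slco4a1 (24.7 and 29.1 FPKM) were not called either.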
